A study of Mus musculus with 6 samples.

Results

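The genes described here are the transcriptional feedback genes of the circadian clock: the activators Arntl (also written Bmal1) and Clock, the repressors Per1, Per2, Per3, Cry1, Cry2, Nr1d1 and Nr1d2, and the output gene Dbp. They were taken by name from the array annotation, keeping probe sets that name exactly 1 gene. All 10 were found among the 19937 genes measured, and each had 1 probe set. Their mean intensities lay between percentile 63.3 (Per3) and percentile 90.6 (Per1) of all genes, so none of the 10 was dim.

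The samples were 6 whole mammary tumours, 1 from each of 6 female FVBN mice carrying the MMTV-PyMT transgene, in which the mammary tumour virus promoter drives the polyoma middle T antigen in mammary epithelium. All mice were 75 to 90 days of age. The 3 vehicle mice received DMSO and the 3 TMP195 mice received TMP195, an inhibitor of class IIa histone deacetylases, at 50 mg/kg once a day into the abdomen. The dosing period is given as 5 days in one description and as 2 weeks in another. The sources used here give no hour of dosing, no hour of tumour collection and no light schedule. A whole tumour holds epithelial, stromal and immune cells, so fewer cells of a type and less RNA per cell cannot be told apart in any value below.

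In mammals the clock is a feedback loop within each cell. The proteins of Arntl and Clock form a dimer that binds E-boxes and switches on the Per, Cry, Nr1d and Dbp genes. PER and CRY proteins then shut the dimer off, and the REV-ERB proteins made from Nr1d1 and Nr1d2 repress Arntl through ROR elements. In tissues with a strong daily rhythm Arntl peaks when Nr1d1 and Dbp are low, so the loop is often read as activator against repressor. HDAC3 is the deacetylase that REV-ERB brings to its targets, and the class IIa enzymes that TMP195 binds form complexes with it.

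These elements were searched for in the promoter sequences, because the loop of activators and repressors runs through elements of these kinds. Shown is 1 example of each kind, with a second for the E-box. Whether the sites shown are bound was not measured. The RefSeq table (GRCm38.p6) held start windows, from 250 bases before to 50 after a start, for 9 of the 10 genes, with 13 windows in all, and held none for Per2. The 250 bases before 1 of the starts of Per1 (chr11:69098699-69098948, plus strand) and before the start of Cry1 (chr10:85185055-85185304, minus strand) are shown with the E-box CACGTG in capitals. Those of Per3 (chr4:151044666-151044915, minus strand) are shown with the D-box, the element that DBP protein binds, in capitals. For Arntl 30 bases just after 1 of its starts (chr7:113207529-113207558, plus strand) are shown with the ROR element core in capitals. All are written 5′ to 3′ on the strand of the gene.

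Per1: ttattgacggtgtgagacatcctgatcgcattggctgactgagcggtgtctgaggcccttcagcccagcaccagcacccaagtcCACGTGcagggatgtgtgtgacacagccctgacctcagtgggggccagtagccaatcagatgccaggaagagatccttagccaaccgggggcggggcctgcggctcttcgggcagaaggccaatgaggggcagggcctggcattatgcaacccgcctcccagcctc

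Cry1: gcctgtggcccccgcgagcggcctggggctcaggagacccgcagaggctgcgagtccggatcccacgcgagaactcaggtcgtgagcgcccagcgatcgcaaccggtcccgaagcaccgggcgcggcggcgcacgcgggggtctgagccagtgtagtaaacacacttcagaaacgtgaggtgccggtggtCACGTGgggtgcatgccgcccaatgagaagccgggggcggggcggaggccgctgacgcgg

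Per3: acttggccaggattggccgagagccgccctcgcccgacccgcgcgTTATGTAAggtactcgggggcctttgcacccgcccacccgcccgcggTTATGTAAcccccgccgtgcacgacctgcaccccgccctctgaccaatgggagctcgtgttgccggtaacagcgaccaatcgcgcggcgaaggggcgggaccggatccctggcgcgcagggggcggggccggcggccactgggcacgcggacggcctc

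Arntl: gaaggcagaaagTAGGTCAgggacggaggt

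The E-box CACGTG was found in the windows of 2 of the 9 genes, Per1 at base -166 and Cry1 at base -60 from the start, and in 7.15% of all 32851 windows of this length. The D-box, searched as TTATGTAA or TTACGTAA, was found in Per3 alone of the 9, at bases -205 and -158, and in 1.06% of all windows. The ROR element core, searched as TAGGTCA or TGGGTCA, was found in Arntl alone, at base 31 after the start, and in 6.45% of all windows. The variant E-box AACGTG was found in Cry1, Cry2 and Nr1d1, and in 4.68% of all windows. Counted by window, as these shares are, the elements were in 2, 1, 1 and 3 of the 13 windows of the clock genes, in the order given. Both strands were searched, and none of the listed matches overlapped another.

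Across the arrays, median intensity lay between 44.8 and 46.4 and the mammary epithelial markers, Krt8, Krt18 and Epcam among them, all ranked above percentile 94 of intensity, which fits the label of the tissue. Along the first principal component, with 43.5% of the variance, TMP195 tumour 2 stood apart, and along the second, with 24.1%, vehicle tumour 2 did. For the clock genes and for the lists and list genes that rest on either tumour, values without it are given too. Each tumour came from its own mouse, and with 3 arrays a group the number of arrays limits the precision.

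None of the 10 clock genes differed between TMP195 and vehicle tumours after adjustment over all genes. All 10 means were higher under TMP195, where 49.5% of all genes were, with a median log2 difference of 0.18 against -0.001 over all genes. The largest differences were those of Per1, Arntl and Per2, at 0.41, 0.38 and 0.35 on the log2 scale. In Per1 and Arntl, 2 of the 10, every TMP195 tumour lay above every vehicle tumour. Groups were apart in this way in 6.68% of all genes, and in 3.47% with TMP195 the higher. Without vehicle tumour 2, the count of higher means went from 10 to 6, with Clock, Cry1, Cry2 and Nr1d1 turned to lower. In that setting 52.5% of all genes were higher, close to the share of the clock genes.

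No gene of the 19937 passed an adjusted p of 0.05 in limma (0.0% of genes), and 502 genes, or 2.52%, had an unadjusted p under 0.05. Per1 and Arntl were 2 of the 235 genes, or 1.18% of all, with such a p and a higher mean under TMP195. For all 10 clock genes limma's adjusted p was 1.00, and it lay between 0.963 and 1.00 under every alternative tried.

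**Figure D1:**
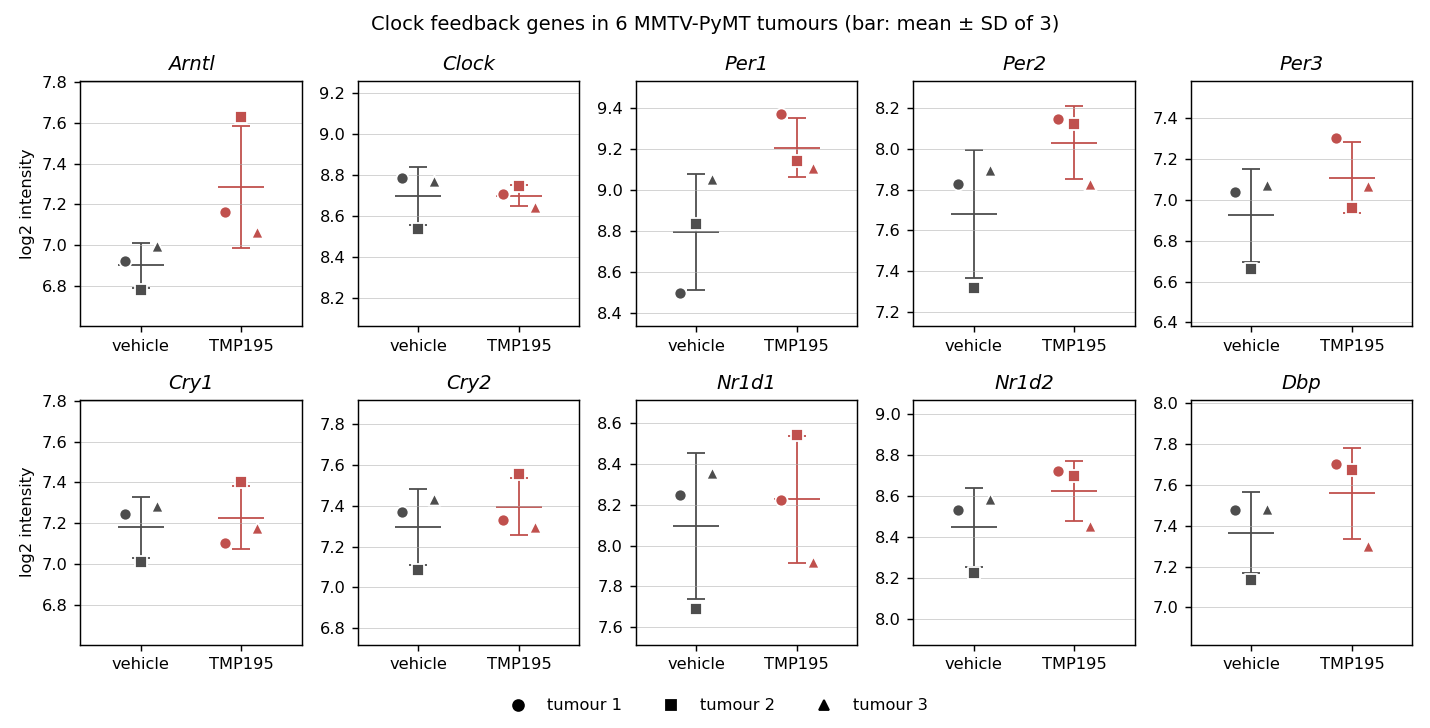
Log2 intensity of each clock gene (vertical axis, the same span in every panel) in the 3 vehicle and 3 TMP195 tumours, with 1 point per tumour and a bar at the mean ± SD. Only in Per1 and Arntl do the groups stand apart, and vehicle tumour 2 (square) is the lowest of the 6 in 9 of the 10 genes.

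Arntl, which encodes the activator BMAL1, had log2 intensities of 6.92, 6.78 and 7.00 in vehicle tumours 1 to 3 and of 7.16, 7.63 and 7.07 in TMP195 tumours 1 to 3. The groups did not overlap, but the gap between the highest vehicle and the lowest TMP195 tumour was 0.067, and TMP195 tumour 2 was far above the rest. The difference in means was 0.38 ± 0.16 (SE) on the log2 scale, or 1.30-fold with a 95% interval of 1.00 to 1.70. Limma's unadjusted p was 0.0489 and its adjusted p 1.00. Without TMP195 tumour 2 the difference was 0.21, and with limma's array weights it was 0.23.

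Clock, the partner of BMAL1, varied little. Under vehicle it read 8.79, 8.53 and 8.77, and under TMP195 8.71, 8.75 and 8.64, with wide overlap. The difference was 0.002 with a 95% interval of -0.24 to 0.25, and limma's adjusted p was 1.00. Its SD over the 6 tumours, 0.095, was at percentile 19.8 of all genes, whereas that of Arntl, 0.292, was at percentile 86.2.

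Per1, a repressor that light, cyclic AMP and glucocorticoid signals can also induce, read 8.50, 8.83 and 9.06 in vehicle tumours 1 to 3. In TMP195 tumours 1 to 3 it read 9.37, 9.14 and 9.11. The groups did not overlap, with a gap of 0.051 between vehicle tumour 3 and TMP195 tumour 3. The difference was 0.41 ± 0.16 (SE), or 1.33-fold with an interval of 1.02 to 1.73, with an unadjusted p of 0.0366 and an adjusted p of 1.00 in limma. Vehicle tumour 1 was the lowest here, unlike in the other 9 genes, and without it the difference was 0.26. Without either or both of the tumours that stood apart it ran from 0.43 to 0.46.

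Per2, whose protein works with CRY proteins to block the activator, read 7.83, 7.32 and 7.89 under vehicle and 8.15, 8.12 and 7.83 under TMP195. The groups overlapped, since TMP195 tumour 3 lay level with vehicle tumour 1 and below vehicle tumour 3. The difference was 0.35 ± 0.18 (SE) with an interval of -0.07 to 0.77 and a limma adjusted p of 1.00. It was 0.17 without vehicle tumour 2.

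Per3, a period gene with a lesser part in keeping the rhythm, read 7.04, 6.66 and 7.07 under vehicle and 7.30, 6.96 and 7.07 under TMP195. Apart from vehicle tumour 2 at the bottom and TMP195 tumour 1 at the top, the 4 remaining tumours lay together. The difference was 0.18 ± 0.15 (SE), and 0.053 without vehicle tumour 2 or 0.088 without TMP195 tumour 1.

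The cryptochrome genes encode the strongest repressors of the loop. Cry1 read 7.24, 7.01 and 7.28 under vehicle and 7.10, 7.40 and 7.18 under TMP195, and Cry2 followed it closely, at 7.37, 7.09 and 7.44 under vehicle and 7.33, 7.55 and 7.30 under TMP195. Both were highest in TMP195 tumour 2 and lowest in vehicle tumour 2, with the groups overlapping. The differences were 0.05 (interval -0.24 to 0.34) for Cry1 and 0.10 (interval -0.21 to 0.40) for Cry2. Both changed sign without vehicle tumour 2, to -0.037 and -0.007, and Cry1 also without TMP195 tumour 2, to -0.040.

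Nr1d1, which encodes REV-ERB alpha, read 8.25, 7.69 and 8.35 under vehicle and 8.22, 8.54 and 7.92 under TMP195. It spanned 0.85 on the log2 scale, or 1.80-fold, and its SD of 0.308 was the largest of the 10 genes. The span ran from vehicle tumour 2 to TMP195 tumour 2, and the groups overlapped widely, with 7.69 to 8.35 under vehicle and 7.92 to 8.54 under TMP195. The difference was 0.13 with an interval of -0.40 to 0.66, and it was -0.074 without vehicle tumour 2 and -0.027 without TMP195 tumour 2.

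Nr1d2, which encodes REV-ERB beta, read 8.53, 8.22 and 8.59 under vehicle and 8.72, 8.70 and 8.46 under TMP195. Dbp, a PAR bZIP transcription factor driven directly by the activator, read 7.48, 7.14 and 7.48 under vehicle and 7.70, 7.67 and 7.30 under TMP195. In both genes TMP195 tumours 1 and 2 were above every vehicle tumour and TMP195 tumour 3 was not. The differences were 0.18 ± 0.13 (SE) for Nr1d2 and 0.19 ± 0.15 (SE) for Dbp, and without vehicle tumour 2 they were 0.067 and 0.079. With both tumours numbered 2 left out they were 0.030 and 0.021.

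**Figure D2:**
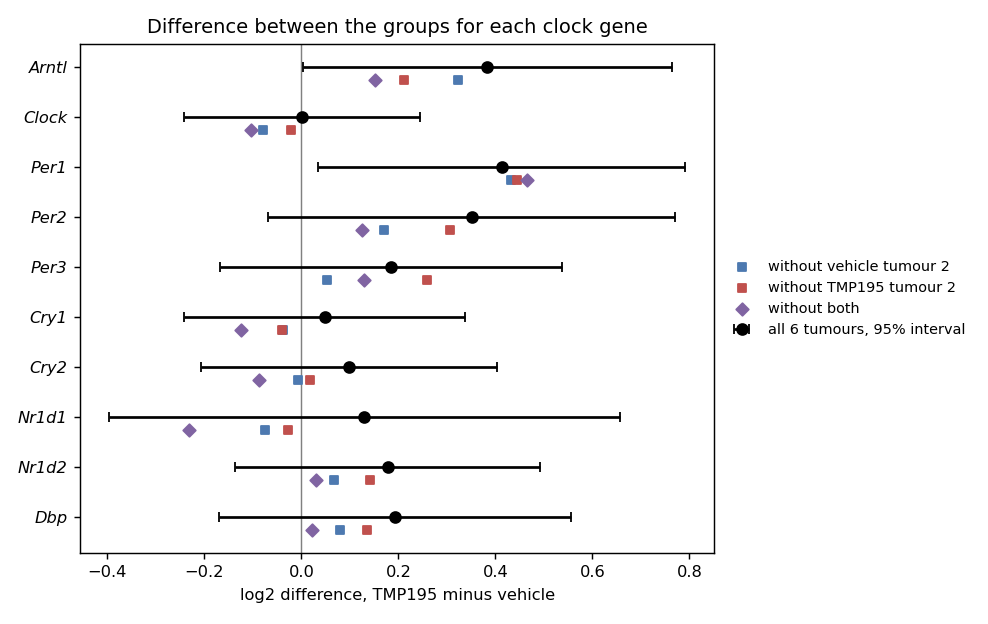
Log2 difference of TMP195 minus vehicle (horizontal axis) for each clock gene, as a black point with its 95% interval in all 6 tumours and as coloured points with tumours left out. The interval excludes 0 only for Per1 and Arntl, before adjustment over all genes, and Clock, Cry1, Cry2 and Nr1d1 cross to the left when vehicle tumour 2 is left out.

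Activators and repressors were then compared within each tumour. Since levels from different probe sets are not comparable, each gene was expressed as its deviation from its own mean over the 6 tumours, on the log2 scale. Activators and repressors lay mostly on the same side in vehicle tumour 2 and in TMP195 tumours 1 and 2, whereas Arntl opposed the repressors in vehicle tumour 3. In vehicle tumour 1 and TMP195 tumour 3 the outcome depended on whether the mean or the median of each gene was the reference. In vehicle tumour 2 all 10 genes were below their own means, with an average deviation of -0.31. In TMP195 tumour 2, 9 of 10 were above theirs, with an average of 0.21, and in TMP195 tumour 1, 8 of 10 were, with an average of 0.14. Vehicle tumours 1 and 3 and TMP195 tumour 3 averaged -0.043, 0.056 and -0.052.

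The tumour with the lowest value was vehicle tumour 2 for 9 of the 10 clock genes, against 18.7% of all genes. The highest value came from TMP195 tumour 1 for 5 of them (Per1, Per2, Per3, Nr1d2 and Dbp), against 10.4% of all genes, and from TMP195 tumour 2 for 4 (Arntl, Cry1, Cry2 and Nr1d1), against 25.4%. The last one, Clock, was highest in vehicle tumour 1. The remaining lowest value, that of Per1, came from vehicle tumour 1, against 16.0% of all genes. Within the groups the tumours also kept an order. Among the vehicle tumours, tumour 3 was the highest in 9 genes (25.2% of all genes) and tumour 2 the lowest in 9 (33.3%), and among the TMP195 tumours, tumour 3 was the lowest in 8 (27.1%).

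Arntl was then set against the 7 repressors and Dbp in each tumour. In vehicle tumour 2 Arntl (-0.31) and all 8 were below their means, so 0 of 8 lay on the opposite side from Arntl. In TMP195 tumour 2 Arntl (0.53) was above, and 1 of 8, Per3, lay on the opposite side. TMP195 tumour 1, with Arntl at 0.069, had 2 of 8 opposite, Cry1 and Cry2. In vehicle tumour 3 Arntl was below its mean (-0.094) and all 8 others above theirs, by 0.073 on average. Clock, the other activator, was on the side of the repressors there, at 0.071. In vehicle tumour 1 Arntl (-0.17) and 5 of 8 were on opposite sides, though the 8 averaged -0.044, on the side of Arntl. In TMP195 tumour 3, where Arntl (-0.027) was close to its mean, 2 of 8 were opposite. In all, 18 of 48 combinations of a gene and a tumour were opposite to Arntl, and 20 of 48 when the median took the place of the mean, which was added once the values had been seen. The counts for single tumours depend on that choice: by the median, 6 of 8 were opposite in TMP195 tumour 3 and 3 of 8 in vehicle tumour 1.

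**Figure D3:**
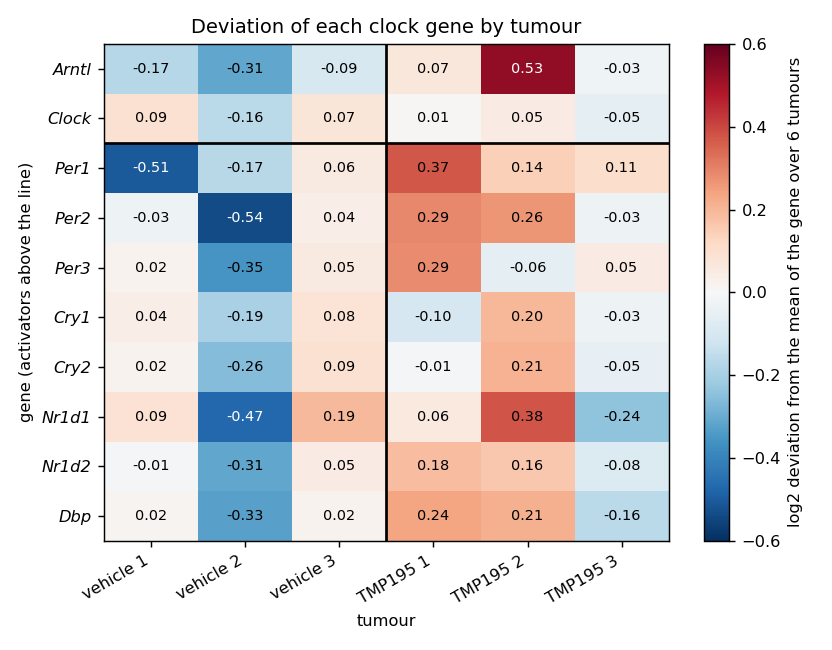
Log2 deviation of each clock gene (rows, activators above the line) from its own mean over the 6 tumours (columns), with red above and blue below the mean. The column of vehicle tumour 2 is blue throughout, and Arntl in the top row takes the same colour as most repressors in both tumours numbered 2.

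Over all 45 pairs of the 10 genes, Pearson's r across the 6 tumours was above 0 in 44, or 97.8%, with a median of 0.73, where 50.7% of pairs among the 13956 brighter genes were above 0. It was above 0.8 in 16 pairs, or 35.6%, against 5.29% of those pairs. The exception below 0 was Clock with Per1, at -0.067. The closest pair was Per2 with Nr1d2, at 0.985, followed by Nr1d2 with Dbp at 0.980 and Cry2 with Nr1d1 at 0.964. All pairs share the same 6 arrays, so these values are a description. Without vehicle tumour 2, 36 of 45 pairs were above 0, with a median of 0.49, against 50.5% of the pairs among brighter genes. In that setting 5 pairs, or 11.1%, were above 0.8, against 8.16%. Without TMP195 tumour 2, 43 pairs were above 0 and 18, or 40.0%, were above 0.8, against 7.5%.

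Arntl was correlated with all 19936 other genes over the 6 tumours, with exact permutation of the 720 orders, two-sided. Nr1d1, which Arntl would oppose in a strong rhythm, had r = 0.73 with Arntl (exact permutation p = 0.100, adjusted p = 0.572 over all genes) and rho = 0.54 (p = 0.297, adjusted p = 0.977). Without the tumours farthest from the median of Arntl, both numbered 2, r was -0.30 over 4 tumours, so the relation rests on those tumours. Dbp had r = 0.73 (exact permutation p = 0.0958, adjusted p = 0.566) and rho = 0.77 (p = 0.103, adjusted p = 0.957), and r = 0.45 without those 2 tumours. Per2 had r = 0.76 (exact permutation p = 0.110, adjusted p = 0.572) and rho = 0.89 (p = 0.0333, adjusted p = 0.885), and r = 0.81 without them.

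For Per1, r was 0.52 (exact permutation p = 0.278, adjusted p = 0.668) and rho 0.89 (p = 0.0333, adjusted p = 0.885), and r was 0.93 without the 2 tumours. The r of the remaining 5 genes with Arntl ran from 0.29 for Per3 to 0.79 for Cry2. Without the 2 tumours it turned to -0.87 for Cry1, -0.68 for Clock and -0.51 for Cry2, and was 0.87 for Per3 and 0.57 for Nr1d2. All 9 genes were on the positive side of Arntl over 6 tumours, where 49.4% of all genes were. Over the 4 tumours left 5 of 9 were, and the share of all genes was not computed there. No gene passed an adjusted p of 0.05 in this exact permutation test, whose smallest p is 0.00139, and 1751 genes had an unadjusted p under 0.05. In Arntl every TMP195 tumour lay above every vehicle tumour, so a correlation with Arntl also carries the difference between the groups. That holds most for Per1, in which the groups were apart too. The permutation did not take the groups into account. Groups of 3 are too small for a correlation within each.

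**Figure D4:**
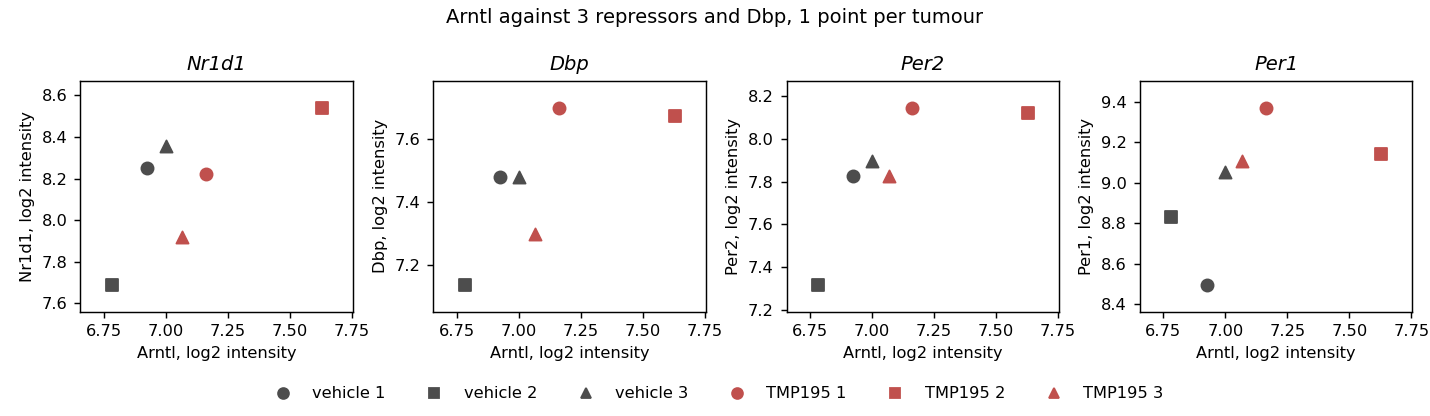
Log2 intensity of Nr1d1, Dbp, Per2 and Per1 (vertical axes) against that of Arntl (horizontal axis), with 1 point per tumour. The pairs run upward, with vehicle tumour 2 at the lower left in the first 3 panels and TMP195 tumour 2 at the far right in all 4.

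The genes whose pattern over the 6 tumours was most like that of Arntl, among 13339 brighter named genes, were Il17rc, a receptor subunit for interleukin-17, the zinc finger gene Sall2 and the actin-capping gene Tmod2, with r of 0.998, 0.996 and 0.994. Most opposed were Pir (-0.993), Zfp991 (-0.989) and Tln2, a talin (-0.986). For Nr1d1 the most like were the formin gene Fhod1 (0.993), Fnbp4 (0.992) and Lipa, the lysosomal acid lipase (0.987). Most opposed to Nr1d1 were Shcbp1 (-0.994), the centromeric histone gene Cenpa (-0.990) and the splicing gene Hnrnpl (-0.990). Shcbp1 read 7.16 in vehicle tumour 2 and 6.17 in TMP195 tumour 2, the reverse of Nr1d1. None of these 12 correlations passed adjustment over all genes (exact permutation, smallest adjusted p = 0.324 for Nr1d1 and 0.553 for Arntl).

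Further clock genes outside the 10 were split between higher and lower. Of 21 further clock genes on 4 lists, 18 were measured, 10 were higher and 8 lower under TMP195, with a median difference of 0.029. None passed, at an adjusted p of 1.00 in limma, none had an unadjusted p under 0.05, and none had groups apart.

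Among the partners, Rora, an activator of Arntl that competes with REV-ERB, differed by 0.06 ± 0.11 (SE). Rorb read 4.82, 4.08 and 3.96 under vehicle and 3.98, 6.70 and 4.39 under TMP195, a difference of 0.73 ± 0.68 (SE). Without TMP195 tumour 2, in which Arntl also was highest, it was -0.105. Arntl2, a paralogue of Arntl, differed by -0.22 ± 0.41.

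Of the relatives of Dbp that bind D-boxes, Tef differed by 0.13 ± 0.16 (SE) and Hlf by -0.004 ± 0.12. Nfil3, which represses at D-boxes, differed by 0.01 ± 0.18. Tef followed Dbp in being highest in TMP195 tumour 1, at 7.06, and lowest in vehicle tumour 2, at 6.46. Of all genes, 10.4% were highest in the first and 18.7% lowest in the second. Hlf had other extremes, highest in TMP195 tumour 3, at 8.05, and lowest in TMP195 tumour 2, at 7.69. Nfil3 shared only the highest tumour.

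Of the further repressors and outputs, Bhlhe41 and Bhlhe40, which encode the E-box repressors DEC2 and DEC1, differed by 0.36 ± 0.23 (SE) and 0.18 ± 0.20, and without TMP195 tumour 2 by 0.11 and -0.033. Bhlhe41 had the Arntl order at both ends, 10.79 in TMP195 tumour 2 and 9.70 in vehicle tumour 2. No other gene on this list was lowest in vehicle tumour 2, and Ciart and Tipin were highest there, at 4.99 and 7.32. Timeless, which in mammals is needed for DNA replication as well, went the other way by -0.33 ± 0.21, with 6.59 in vehicle tumour 2 and 5.66 in TMP195 tumour 2. Timeless differed by -0.14 without the first, by -0.21 without the second and by -0.023 without both. The deubiquitinase gene Usp2 differed by 0.07 ± 0.12.

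Of the kinases and ligases that set the stability of PER and CRY, 2 of 5 measured were higher and 3 lower, between -0.19 and 0.07. Csnk1d, a casein kinase that marks PER for destruction, differed by -0.11 ± 0.10 (SE), Gsk3b by 0.07 ± 0.10 and the ligase gene Btrc by 0.05 ± 0.10. Fbxl21, at -0.19 ± 0.16, was dim.

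The corepressor that REV-ERB uses was measured in 4 of 6 listed subunits, of which 1 was higher and 3 lower under TMP195. Hdac3, its deacetylase, read 9.47, 9.65 and 9.34 under vehicle and 9.47, 9.51 and 9.46 under TMP195, a difference of -0.009 with an interval of -0.26 to 0.24. Tbl1xr1, an exchange subunit, read 8.74, 8.72 and 8.76 under vehicle and 8.68, 8.52 and 8.63 under TMP195, so that the TMP195 values all lay below the vehicle values. Its difference was -0.13 ± 0.09 (SE) with a limma adjusted p of 1.00, and 3.21% of all genes were lower with groups apart. Gps2 differed by -0.13 ± 0.11 and Tbl1x by 0.08 ± 0.11.

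Per1 can also be induced outside the loop, so the genes that share its inducers were listed. Of 8 genes induced by glucocorticoids 5 were higher and 3 lower, with a median of 0.030. The closest to a difference were the metallothionein genes Mt2 (-0.28 ± 0.20, SE) and Mt1 (-0.13 ± 0.13), Zbtb16 (-0.41 ± 0.42) and Sgk1 (0.07 ± 0.10). Of 7 immediate-early genes 5 were higher and 2 lower, with a median of 0.083, and none passed (limma adjusted p 1.00) or had an unadjusted p under 0.05.

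Fosb, an AP-1 subunit, read 5.28, 5.50 and 6.47 under vehicle and 7.19, 5.87 and 6.96 under TMP195, a difference of 0.92 ± 0.42 (SE). Nr4a1, an inducible nuclear receptor, read 7.99, 8.33 and 8.62 under vehicle and 9.23, 8.30 and 8.86 under TMP195, a difference of 0.48 ± 0.26. Both were highest in TMP195 tumour 1 and lowest in vehicle tumour 1, as Per1 was and as 1.63% of all genes were. Klf9 on the glucocorticoid list, Nfil3 and the epithelial marker Krt8 had the same extremes, so these were not limited to immediate-early genes, and Egr1 (0.18 ± 0.16) and Jun (-0.13 ± 0.10) did not have them. The part of these genes in the level of Per1 was not tested.

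Markers of cell type and cell division were extreme in both tumours numbered 2. In vehicle tumour 2, the lowest for 9 clock genes, the mean of 10 skeletal muscle genes was 7.96, against 4.68 to 5.04 in the other 5 tumours, with Acta1 at 10.50 and Ckm at 9.01. The mean of 6 proliferation genes was highest there, at 8.87, and lowest, at 7.81, in TMP195 tumour 2, where 4 clock genes peaked. In the 4 other tumours it lay between 8.39 and 8.64. The mean of 9 adipocyte genes was also lowest in TMP195 tumour 2, at 4.66, and highest in vehicle tumour 3, at 8.28, where no clock gene was extreme. In TMP195 tumour 1, where 5 clock genes peaked, none of these 3 lists was at its highest or lowest, with means of 8.39 for proliferation, 4.73 for muscle and 7.54 for adipocyte genes. The mean of 4 endothelial genes, however, was highest there, at 7.375, followed by TMP195 tumour 2 at 7.353. It was lowest in vehicle tumour 2, at 6.983, as the clock genes were. The mean of 5 T cell genes was lowest in TMP195 tumour 1, at 4.287, with vehicle tumour 2 next at 4.294. Among the vehicle tumours the adipocyte mean was lowest in tumour 2, at 5.78. The mean of 5 fibroblast genes was also highest in vehicle tumour 3, at 10.37, and among vehicle tumours lowest in tumour 2, at 9.63. Both ends match those of 9 clock genes within vehicle. Among the TMP195 tumours both lists were lowest in tumour 2, whereas 8 clock genes were lowest in tumour 3.

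All 10 muscle, all 9 adipocyte and all 6 proliferation genes had lower means under TMP195, with the groups overlapping in each. Without vehicle tumour 2, 7 of the 10 muscle genes were higher instead, with a median of 0.15 in place of -0.92. Without TMP195 tumour 2, 8 of 9 adipocyte and 4 of 6 proliferation genes were lower, with medians of -0.14 and -0.105 in place of -0.92 and -0.32. Without both, all 6 proliferation genes were higher, with a median of 0.071, and all 9 adipocyte genes lower. Endothelial genes were higher in 4 of 4, by 0.12 to 0.21, and macrophage genes lower in 6 of 6, with a median of -0.14. Of those 6, Adgre1 was level, with a mean of 6.94 in both groups and a difference of -0.0002. The endothelial median of 0.161 fell to 0.056 without vehicle tumour 2 and was 0.154 without TMP195 tumour 2. Without both, 3 of 4 endothelial genes were higher, with a median of 0.07. Epithelial markers differed by a median of 0.007. In the 4 tumours numbered 1 and 3, Per1 differed by 0.46, Arntl by 0.15, Per2 by 0.13, and Nr1d1 by -0.23. The part of muscle, fat, endothelial, fibroblast or dividing cells in the clock genes' values was not tested.

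**Figure D5:**
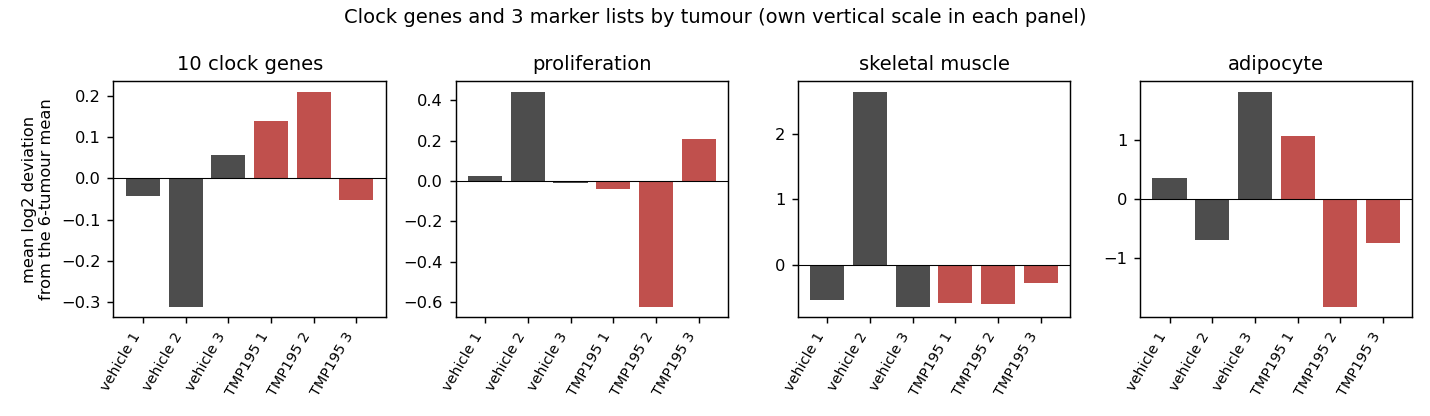
Mean log2 deviation from the 6-tumour mean (vertical axis, its own scale in each panel) of the 10 clock genes and of the proliferation, skeletal muscle and adipocyte lists in each tumour, with vehicle in grey and TMP195 in red. The clock genes are lowest in vehicle tumour 2, where the muscle and proliferation lists are highest, and highest in TMP195 tumour 2, where the proliferation and adipocyte lists are lowest.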

How the data were processed

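RNA from 6 whole tumours was measured on 1 Affymetrix array each. The intensities deposited by the authors were made, per the submitters' processing notes, with Affymetrix Power Tools and RMA. No version, filter or genome build is given in the sources used here. These deposited intensity values were taken as linear, since all were above 0 and reached 8137 to 8873 per array. They were converted to log2. Probe sets were named through the platform annotation, 21784 with 1 symbol, 1620 with several and 3955 with none. Entrez IDs of 21693 were found in the RefSeq table (GRCm38.p6), and 0 symbols changed. The brightest probe set stood for a gene, with no filter on dim ones.

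The difference of TMP195 minus vehicle came from limma 3.58.1 (R 4.3.3; lmFit and eBayes, two-sided, no covariate) and adjusted by Benjamini-Hochberg over 19937 genes. The pipeline was tested on simulated data. Correlations used exact permutation in Python 3.11.15. "Brighter" genes lie above the 30th percentile of mean intensity. The clock genes, gene lists and tests were chosen with earlier results of these data known. Named genes were the 10 clock genes, up to 4 per further list by smallest p, and the 3 most and least like Arntl and Nr1d1, leaving out predicted and olfactory genes. Klf9, Ciart, Tipin, Acta1, Ckm, Krt8, Krt18, Epcam, Adgre1 and single marker values were chosen after their values were seen. Listed genes without a probe set of their own are not analysed here. Other settings tried were a block for replicate number, other priors and normalizations, a filter on dim genes, other uses of probe sets, array weights and leaving out tumours.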

Additional observations from a re-analysis of the deposited data

How the results depend on the processing

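Per1, Arntl, Per2, Per3, Nr1d2 and Dbp kept their direction under all 15 alternatives, from 0.26 to 0.54 for Per1, 0.15 to 0.49 for Arntl, 0.13 to 0.46 for Per2, 0.053 to 0.26 for Per3, 0.030 to 0.26 for Nr1d2 and 0.021 to 0.32 for Dbp. Clock, Cry1, Cry2 and Nr1d1 turned lower with limma's array weights (-0.053, -0.052, -0.018 and -0.103) and with both tumours numbered 2 left out (-0.104, -0.124, -0.087 and -0.231). Array weights gave those 2 tumours the lowest weights, 0.612 and 0.439. With single tumours left out the 4 genes ran from -0.079 to 0.047, from -0.040 to 0.109, from -0.007 to 0.168 and from -0.074 to 0.284. The count of higher clock genes was 6 of 10 with array weights and with both tumours left out, and 6 to 10 with single tumours left out. The share of all genes that were higher was 50.9% with array weights and 50.7% with both left out. With single tumours left out it ran from 47.4% to 52.5%. No gene passed an adjusted p of 0.05 in limma under any alternative. Genes at an unadjusted p under 0.05 numbered 502, of which 235 were higher, 243 without dim genes, where fewer were tested, and 938 with array weights. With median centring 285 of 486 were higher. The correlation of Arntl with Clock ran from -0.056 to 0.641 and with Per3 from -0.307 to 0.947 with single tumours left out, both negative only without vehicle tumour 2. Pairs of clock genes with r above 0 numbered 36 to 45, and leaving out tumours numbered 2 took Rorb to between -0.105 and 0.63, Bhlhe40 to between -0.033 and 0.22, and, with both left out, Rorb to -0.209 and Bhlhe41 to -0.0016, alternatives chosen after seeing the data. Same-numbered tumours of the 2 groups did not deviate together (r of -0.212, -0.063 and -0.097 across genes), none correlated best with its own number, and the replicate block gave 397 genes at an unadjusted p under 0.05, with Per1 at p = 0.0774 in limma. Causes of these shifts were not tested.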
